A study of Rattus norvegicus with 84 samples.

Results

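The mRNA cargo of brain-derived extracellular vesicles (EVs) was compared between rats given human neural stem cells (hNSCs) and rats given saline, 31 days after stroke. The comparison holds 6 libraries, 3 of the hNSCs group and 3 of the control group, of 84 libraries in the series and of 21 mRNA libraries from brain. Libraries were taken by their labels for tissue, treatment, time and library type, and genes by their annotated names, which gave 18782 genes in the table. All rats were wild-type adult male Sprague-Dawley rats aged 8 to 12 weeks, with 1 rat per library. The control and hNSCs rats had the middle cerebral artery occluded for 90 min and were injected 3 days later through an artery with saline or with hNSCs, a line derived from human fetal telencephalon. The EVs came from the ipsilateral hemisphere as a whole, so infarct, scar and spared tissue were pooled. A healthy group of 3 rats without occlusion gave the background level. Reads were counted on rat genes, and human transcripts of the graft were not measured as such.

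EVs are membrane particles that cells release from endosomes and from the plasma membrane, and they carry fragments and whole copies of the RNA of the cell that made them. In the brain they are released by neurons, astrocytes, oligodendrocytes, microglia and vascular cells, so the EV mRNA of a hemisphere mixes contributions from all of them. A month after a stroke the lesion is bordered by a glial scar of reactive astrocytes, with phagocytic microglia and macrophages and a fibrous core. In such bulk libraries, fewer cells of a type, fewer EVs per cell and less RNA per EV cannot be told apart.

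Libraries held between 17965904 and 37651652 counts, of which 29.9% to 51.9% fell on annotated genes and the rest on new genes that the authors had assembled. That share was 3.18% to 25.3% in the other 15 brain libraries, below every library at 31 days, and the 6 libraries detected 15013 to 16116 annotated genes against 6190 to 14099 in the others. Total counts, the annotated share, detected genes and the hemoglobin share of annotated counts did not separate hNSCs from control (two-sided exact permutation p of 0.7, 1, 0.8 and 0.7, with 0.1 the smallest p that 3 against 3 allows). On log2 CPM of 14938 genes, Pearson's r across genes lay between 0.903 and 0.943 for pairs of the same group and between 0.892 and 0.960 for pairs of different groups. Replicate 3 of hNSCs stood apart on the first principal component, which held 37.4% of the variance, and replicate 3 of control on the second component, which held 23.7%.

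No gene was called between hNSCs and control at 31 days. In the edgeR quasi-likelihood test with Benjamini-Hochberg adjustment, over all 7 brain groups, 14515 genes were tested and 0 (0%) passed an adjusted p of 0.05 and a 1.5-fold change. The smallest adjusted p was 1. An unadjusted p under 0.05 was reached by 13 genes (0.0896%), 3 higher and 10 lower in hNSCs. A calibrated test without any effect would give a share of 0.05, so this fit was conservative for these 6 libraries. The count of 0 calls therefore does not show that no gene changed. The median log2 fold change over all genes was 0.0033, and the quartiles were -0.16 and 0.18. The 3 hNSCs libraries lay above all control libraries for 478 genes (3.29%) and below all of them for 387 genes (2.67%). DESeq2 called 1 gene, limma on FPKM 0 and limma voom 1.

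The precision of this comparison depended on which libraries set the spread. With all 21 brain libraries in the fit the biological coefficient of variation was 0.844, and 105 genes of 14487 with an interval had a 95% interval of the fold change that stayed within 1.5-fold. With only the 6 libraries compared it was 0.331, still 0 genes (0%) of 14938 were called, 219 (1.47%) had an unadjusted p under 0.05, and 3303 intervals (22.1%) stayed within 1.5-fold. With the replicate number as a block in that fit, 0 genes were called, 705 had an unadjusted p under 0.05 and the smallest adjusted p was 0.169. For most genes, therefore, a change of 1.5-fold in one direction or the other lay inside the interval. Such a change was not detectable with these fits and 3 rats a group.

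**Figure D1:**
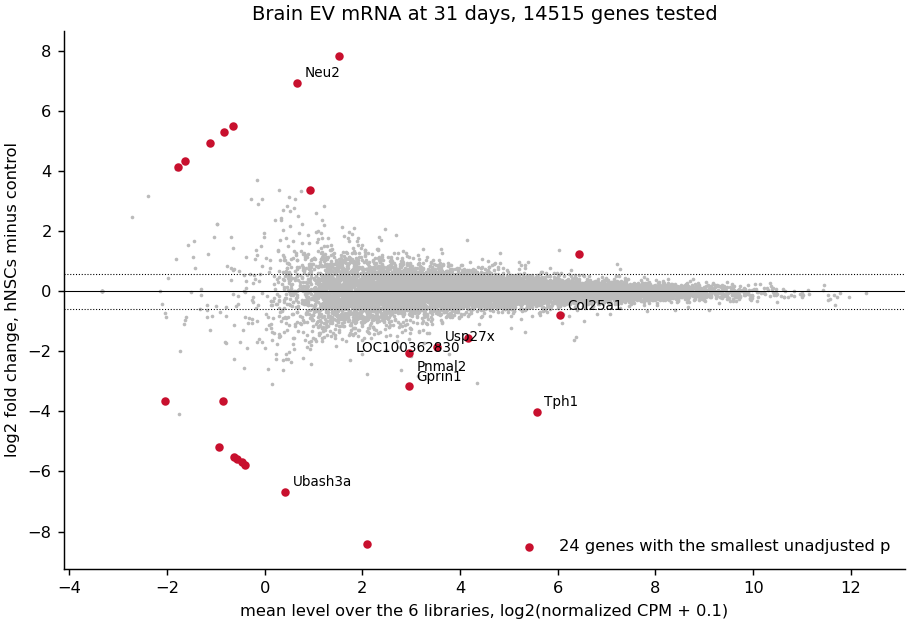
Log2 fold change of hNSCs minus control at 31 days against the mean level in log2(normalized CPM + 0.1) for the 14515 genes tested, with 1 point per gene and dotted lines at 1.5-fold. The 24 genes with the smallest unadjusted p (red) lie mostly at low levels, 17 of them with a mean under 5 CPM.

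Since no gene was called, the 24 genes with the smallest unadjusted p are described, 9 higher and 15 lower in hNSCs. They were chosen by this p, so their values are a description. Counts in both groups were found for 9 of them, and the other 15 had no count in 1 of the groups. The mean over the 6 libraries was under 5 CPM for 17 of the 24. Levels are given as CPM of annotated counts after TMM scaling.

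Gprin1, which encodes a G protein-regulated inducer of neurite outgrowth, was lower in hNSCs. It stood at 3.76, 17.8 and 19.6 CPM in the control libraries and 0.919, 1.57 and 2.06 CPM in the hNSCs libraries, and the groups did not overlap. The log2 fold change was -3.16 ± 1.26 (SE), and the 3 healthy libraries at 12.2, 8.64 and 12.4 CPM were all above the hNSCs libraries. Gprin1 was the gene DESeq2 called when only the 6 libraries were fitted, with an adjusted p of 0.0334.

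LOC100362830, an uncharacterized locus, had 18.1, 29.3 and 32.3 CPM in the control libraries and 13.3, 7.36 and 6.29 CPM in the hNSCs libraries, again without overlap and with a log2 fold change of -1.56 ± 0.67. Col25a1, a transmembrane collagen of neurons, had 49.1, 125 and 77 CPM in the control libraries and 38.8, 55.4 and 49.2 CPM in the hNSCs libraries, a log2 fold change of -0.81 ± 0.46, and control replicate 1 inside the hNSCs range. Usp27x, a deubiquitinase, had 24.4, 21.3 and 8.36 CPM in the control libraries and 3.31, 9.62 and 2.06 CPM in the hNSCs libraries, and its groups overlapped. Pnmal2, a member of the paraneoplastic Ma antigen family, had 2.53, 21.8 and 12.9 CPM in the control libraries and 2.02, 3.04 and 3.75 CPM in the hNSCs libraries, while healthy libraries ranged from 11.1 to 768 CPM. Control replicate 1 lay inside the hNSCs range for Pnmal2 too.

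Single libraries carried Tph1 and Elfn2. Tph1, the tryptophan hydroxylase of peripheral tissues and the pineal gland, had 267, 0 and 1.26 CPM in the control libraries and 9.49, 5.69 and 1.33 CPM in the hNSCs libraries. Its log2 fold change of -4.01 turned to 3.09 without control replicate 1. Elfn2, a postsynaptic leucine-rich repeat protein, had 0.555, 0.132 and 0.158 CPM in the control libraries and 9.55, 0.196 and 0.242 CPM in the hNSCs libraries, and its log2 fold change of 3.38 turned to -0.43 without hNSCs replicate 1. The histone Hist1h2aa, was at or under 1.58 CPM in each of the 6 libraries at 31 days.

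Among the 15 genes without counts in 1 group, Ubash3a had the smallest p of all genes tested. Ubash3a encodes an adaptor that dampens T cell receptor signaling. It had 46, 18 and 14 counts in the control libraries (2.84, 2.38 and 2.21 CPM) and 0 in each hNSCs library, which is at least 30-fold lower in hNSCs against a floor of 3 counts over the group. Healthy libraries held 10.1, 7.97 and 6.75 CPM, and all 12 libraries of days 4 and 10 held 0. The adjusted p was 1 in edgeR with TMM and 4.5e-05 in limma voom with sample weights.

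The other transcripts found in every control library and in no hNSCs library had fewer counts in all. Notum, a secreted enzyme that inactivates Wnt ligands, had 5, 14 and 10 counts and was at least 11.2-fold lower in hNSCs. Pttg1, the securin of mitotic cells, had 14, 15 and 7 counts and was at least 13.9-fold lower. LOC102546754 had 24, 3 and 9 counts and was at least 13.9-fold lower. In the opposite direction, Neu2, a cytosolic sialidase, had 15, 11 and 57 counts in the hNSCs libraries and 0 in the control libraries, at least 24-fold higher. These bounds cover counting error only.

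In 6 of the 24 genes all counts sat in a single library. These were LOC689986 with 159 counts in control replicate 3, LOC108351580 with 26 in control replicate 2, LOC108352751 with 169 and Cyp26c1, a retinoic acid hydroxylase, with 33 in hNSCs replicate 2, and Cdca3 with 22 and Tnfsf4, the OX40 ligand, with 19 in hNSCs replicate 1. The scavenger receptor Cd36 had 16, 12 and 0 counts in hNSCs and RGD1565131 had 7, 24 and 0, and neither was found in control. Ect2, a factor of cytokinesis, had 26, 7 and 0 counts and LOC108349506 had 1, 6 and 0 in control, and neither was found in hNSCs.

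**Figure D2:**
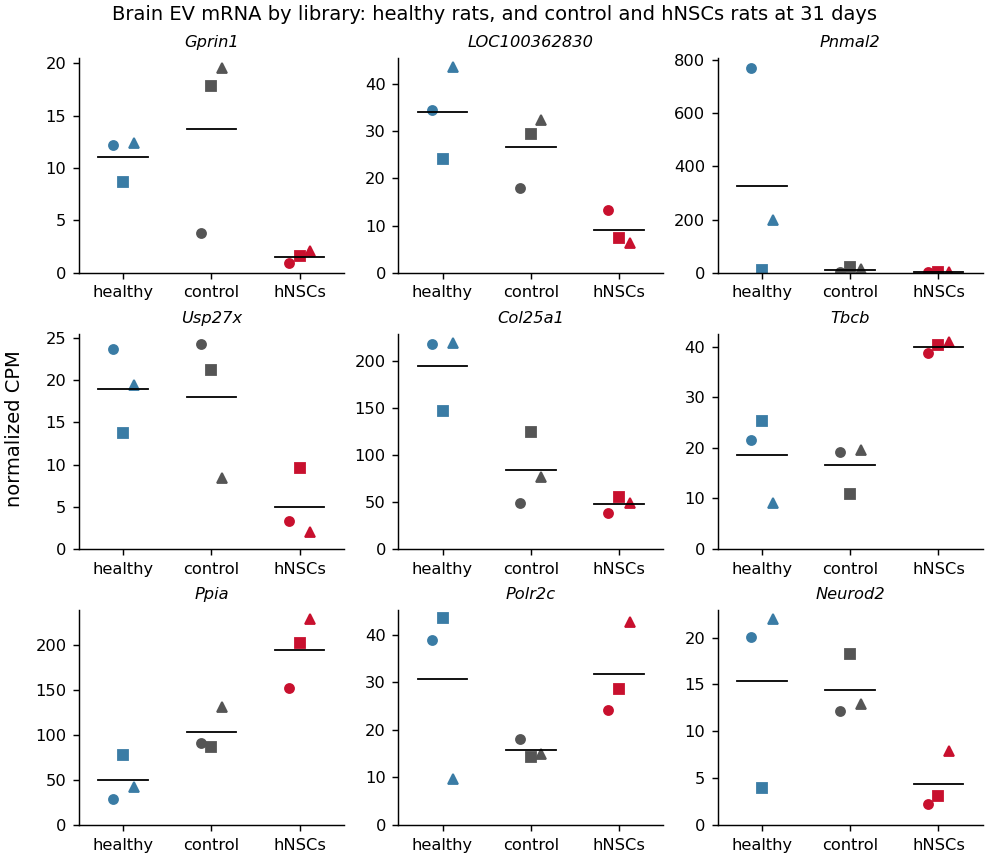
Normalized CPM of 9 genes in each library of the healthy rats and of the control and hNSCs rats at 31 days, with 1 point per rat, its shape giving the replicate number and the line the group mean. The hNSCs points of Tbcb, Ppia and Polr2c lie above all control points, and those of Gprin1, LOC100362830 and Neurod2 lie below them.

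Fitting the 6 libraries alone brought forward genes of moderate abundance, which were chosen after their values were seen. Tbcb, a cofactor of tubulin folding, had 19.1, 10.8 and 19.6 CPM in the control libraries and 38.7, 40.2 and 40.9 CPM in the hNSCs libraries, with a log2 fold change of 1.26 and a 95% interval of 0.68 to 1.84 in that fit. The spread in hNSCs was small, at 39.9 ± 1.12 CPM (SD, n = 3) against 16.5 ± 4.92 CPM in control. Ppia, the peptidylprolyl isomerase cyclophilin A, had 91.4, 86.6 and 131 CPM in the control libraries and 152, 202 and 228 CPM in the hNSCs libraries, with a log2 fold change of 0.90 (0.43 to 1.38). Ppia has many processed copies in the genome, and reads shared with them could not be separated here.

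Neurod2, a transcription factor of cortical glutamatergic neurons, had 12.2, 18.2 and 12.9 CPM in the control libraries and 2.2, 3.14 and 7.86 CPM in the hNSCs libraries, with a log2 fold change of -1.75 (-2.8 to -0.70). Polr2c, a subunit of RNA polymerase II, had 18, 14.3 and 14.8 CPM in the control libraries and 24.2, 28.7 and 42.6 CPM in the hNSCs libraries, with 1.0 (0.40 to 1.6). Cntnap5a, a contactin-associated protein of neurons, had 2.47, 1.85 and 2.84 CPM in the control libraries and 6.61, 7.16 and 9.68 CPM in the hNSCs libraries. All 5 genes separated the groups without overlap, and in the fit of all 21 libraries their unadjusted p lay between 0.142 and 0.437. Itgb1bp2, an integrin-binding protein of muscle, and the chloride channel protein Clic3 were found in all hNSCs libraries (1.35, 4.12 and 1.94 CPM and 2.14, 1.37 and 2.3 CPM) and in no control library, at least 23.1-fold and 19.6-fold higher. In the opposite direction, LOC100359633 was found in all control libraries (1.73, 2.9 and 1.26 CPM) and in no hNSCs library, at least 22.3-fold lower. Itgb1bp2 and LOC100359633 were at 0 CPM in every other brain library. Genes found in 1 group only passed the count filter of this fit through that group. They were also chosen by these values, so the bounds are a description and cover counting error only.

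Gene lists of brain cell types and pathways were followed next. Of 413 members tested over 24 lists, 0 were called and 0 had an unadjusted p under 0.05 in the fit of all libraries, and 4 had one in the fit of the 6 libraries. The groups did not overlap for 13 members (3.15%), against 5.96% of all genes tested. The median log2 fold change of the members was 0.028, and 220 of 413 (53.3%) were positive, against 7341 of all genes (50.6%). List medians ranged from -0.19 for extracellular matrix to 0.31 for striatal neurons. Values written with ± and no unit are log2 fold changes with their SE from the fit of all libraries.

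**Figure D3:**
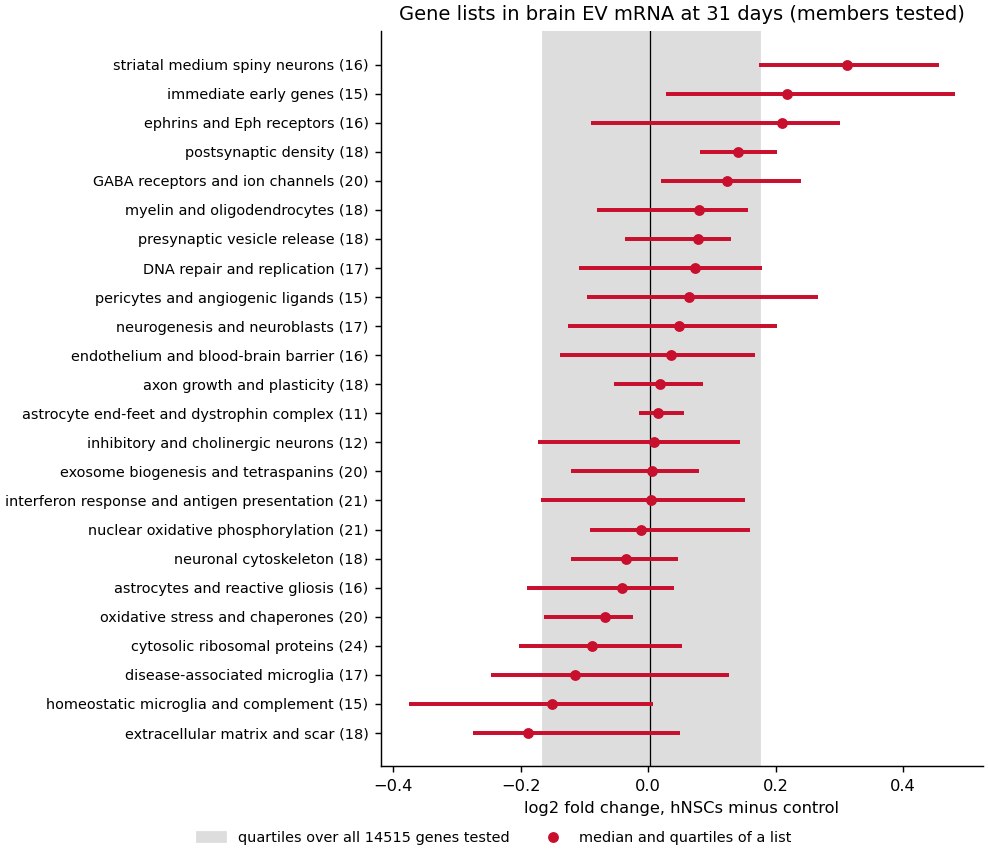
Median (point) and quartiles (bar) of the log2 fold change, hNSCs minus control at 31 days, over the tested members of each of 24 gene lists, with the quartiles over all 14515 genes tested in gray. Medians of striatal neurons, immediate early genes and ephrins lie above the gray band and that of extracellular matrix below it, with 0 members called in any list.

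Transcripts of striatal medium spiny neurons, the neurons at the core of a middle cerebral artery infarct, had positive values in 15 of 16 members, with a median of 0.31 (quartiles 0.17 and 0.46). Summed over the list, CPM were 1201, 1328 and 1132 in control, 1596, 1312 and 1119 in hNSCs and 2371, 1923 and 1678 in healthy libraries, so control and hNSCs overlapped and both lay under every healthy library. Ppp1r1b, which encodes the dopamine signaling protein DARPP-32, had 229, 276 and 237 CPM in the control libraries and 311, 274 and 257 CPM in the hNSCs libraries. Adora2a, the adenosine receptor of indirect pathway neurons, had 4.44, 4.49 and 1.1 CPM in the control libraries and 10.2, 4.12 and 3.14 CPM in the hNSCs libraries. Bcl11b, a transcription factor of these neurons, was the 1 member with a negative value, -0.33 ± 0.37, and Adcy5, the striatal adenylyl cyclase, was at 0.037 ± 0.30. Replicate 1 of hNSCs held the highest value of Ppp1r1b, Adora2a, Drd1, Rgs9 and Pde10a.

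Immediate early genes, which neurons transcribe within minutes of activity, were positive in 13 of 15 members, with a median of 0.22 (quartiles 0.029 and 0.48). Arc, a regulator of synaptic receptor traffic, had 84.5, 101 and 163 CPM in the control libraries and 189.6, 97.4 and 296 CPM in the hNSCs libraries, with a log2 fold change of 0.74 ± 0.46. Egr3 had 30.5, 37.1 and 59.8 CPM in the control libraries and 81.3, 56.8 and 78.4 CPM in the hNSCs libraries, and Egr2 6.78, 6.34 and 8.67 CPM in the control libraries and 22.5, 7.36 and 22.4 CPM in the hNSCs libraries. For Arc, Egr2 and Egr3 hNSCs replicates 1 and 3 were above all control libraries and replicate 2 was not. Fos, at 52.5, 58.4 and 50.8 CPM in the control libraries and 76.7, 64 and 68.9 CPM in the hNSCs libraries, was the member of the list whose groups did not overlap, with a log2 fold change of 0.38 ± 1.13. Jun had a negative value, with 131, 133 and 129 CPM in the control libraries and 90.9, 179.9 and 18 CPM in the hNSCs libraries. Jund and Egr1 were at -0.20 ± 0.52 and 0.59 ± 1.67.

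No synaptic transcript was called. Postsynaptic density members were positive in 16 of 18, with a median of 0.14 (quartiles 0.081 and 0.20), presynaptic members in 12 of 18, with a median of 0.078 (quartiles -0.036 and 0.13), and GABA receptors and ion channels in 15 of 20, with a median of 0.12 (quartiles 0.020 and 0.24). Nrgn, a calmodulin-binding protein of dendritic spines, had 798, 740.0 and 1117 CPM in the control libraries and 768, 769.9 and 1530.0 CPM in the hNSCs libraries. Camk2a, the kinase of excitatory synapses, was at 0.23 ± 0.32 and the scaffold Ppp1r9b at -0.092 ± 0.22. Snap25, of the vesicle fusion complex, had 845, 523 and 1043 CPM in the control libraries and 764, 552 and 1404 CPM in the hNSCs libraries, and its partners Vamp2 and Cplx2 were at 0.14 ± 0.30 and -0.059 ± 0.33. Gabbr1, a subunit of the metabotropic GABA receptor, was at 0.15 ± 0.26. In the fit of the 6 libraries, 11 of 18 postsynaptic, 5 of 18 presynaptic and 10 of 20 GABA and channel members had intervals within 1.5-fold.

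Inhibitory and cholinergic markers had a median of 0.0086 (quartiles -0.17 and 0.14). Gad1 and Gad2, the enzymes of GABA synthesis, were at 0.073 ± 0.44 and -0.037 ± 0.70, and the calcium buffer Pvalb at -0.22 ± 1.27. Neuronal cytoskeleton members were negative in 11 of 18, with a median of -0.035 (quartiles -0.12 and 0.047). Nefm had 1153, 1709 and 1935 CPM in the control libraries and 627, 1164 and 1976 CPM in the hNSCs libraries, and Nefl 1096, 1558 and 1637 CPM in the control libraries and 787, 1227 and 1932 CPM in the hNSCs libraries. The kinesin Kif5a was at 0.019 ± 0.25. Axon growth members had a median of 0.018 (quartiles -0.054 and 0.086), with Basp1, Dpysl2 and Gap43, all proteins of growing axons, at -0.20 ± 0.26, -0.0098 ± 0.22 and -0.064 ± 0.39. Intervals within 1.5-fold in the fit of the 6 libraries were found for 12 of its 18 members.

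Ephrins and Eph receptors, a contact signaling system of axon guidance and of synapse and vessel formation, were positive in 10 of 16, with a median of 0.21 (quartiles -0.090 and 0.30). The receptors Epha4, Epha5 and Ephb6 were the highest per length, at 0.22 ± 0.56, 0.25 ± 0.47 and 0.30 ± 0.40. Epha7 had 62.9, 52.9 and 54.9 CPM in the control libraries and 76, 69.9 and 64.9 CPM in the hNSCs libraries, above control without overlap. The ligand Efna2 had 2.1, 3.04 and 3.94 CPM in the control libraries and 0.735, 1.77 and 1.33 CPM in the hNSCs libraries, below control without overlap. Neurogenesis members had a median of 0.049 (quartiles -0.13 and 0.20), with the neuronal tubulin Tubb3 at 0.049 ± 0.39 and the progenitor factors Sox2 and Sox4 at -0.53 ± 0.81 and -0.13 ± 0.48. Sox2 varied within each group, with 55.6, 12.1 and 88.5 CPM in the control libraries and 84.4, 14.5 and 8.95 CPM in the hNSCs libraries.

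Astrocyte and gliosis transcripts were above the healthy sums in all 6 libraries, and their ranges overlapped between hNSCs and control. Their median was -0.041 (quartiles -0.19 and 0.041), with 5 of 16 positive. Gfap, the intermediate filament of reactive astrocytes, had 3003, 4120.4 and 2874 CPM in the control libraries and 2860.2, 4343 and 1147 CPM in the hNSCs libraries and 695, 504 and 571 CPM in healthy libraries. Its log2 fold change between hNSCs and control was -0.26 ± 0.34. Vim, the other main filament of scar astrocytes, had 806, 875 and 383 CPM in the control libraries and 744, 849 and 226 CPM in the hNSCs libraries, and S100b was at -0.090 ± 0.31. In each of Gfap and Vim hNSCs replicate 3 was the lowest of the 6. The end-foot list had a median of 0.016 (quartiles -0.015 and 0.056), with the water channel Aqp4 at 0.016 ± 0.52 and Dtna and Agrn at 0.036 ± 0.27 and -0.065 ± 0.42.

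Medians of both microglial lists were negative. The disease-associated list had a median of -0.11 (quartiles -0.25 and 0.13) and 8 of 17 positive, and the homeostatic and complement list -0.15 (quartiles -0.38 and 0.0073) and 4 of 15 positive. Apoe, a lipid carrier of astrocytes and microglia and the most abundant annotated transcript per length at 323 FPKM, had 3282, 4887 and 2595 CPM in the control libraries and 3037, 4774 and 1623 CPM in the hNSCs libraries. The complement genes C1qa and C1qb had 60.1, 81.5 and 56.1 CPM in the control libraries and 46.8, 90.9 and 30.5 CPM in the hNSCs libraries, and 40.2, 43.4 and 19.2 CPM in the control libraries and 28.8, 59.1 and 6.05 CPM in the hNSCs libraries, respectively. Aif1, Fabp5 and Ctsb were at -0.47 ± 1.14, -0.35 ± 0.64 and 0.034 ± 0.52. Cx3cr1, the microglial fractalkine receptor, had 12.5, 10.8 and 10.4 CPM in the control libraries and 6.0, 10 and 6.29 CPM in the hNSCs libraries, below control without overlap. Gpnmb, a glycoprotein of lipid-laden phagocytes, had 85.5, 64.2 and 26.2 CPM in the control libraries and 162, 114 and 8.83 CPM in the hNSCs libraries, with hNSCs replicates 1 and 2 highest and hNSCs replicate 3 lowest.

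Myelin transcripts had a median of 0.080 (quartiles -0.080 and 0.16), and 8 of 18 intervals lay within 1.5-fold in the fit of the 6 libraries. Mbp, the myelin basic protein, had 862, 1046 and 919.9 CPM in the control libraries and 783, 1052 and 844 CPM in the hNSCs libraries, against 1841 ± 142 CPM in healthy libraries. Cnp, an enzyme of myelin, was at -0.064 ± 0.31. Olig2, the oligodendrocyte lineage factor, had 57.2, 56.9 and 38.3 CPM in the control libraries and 57.9, 72.9 and 57.8 CPM in the hNSCs libraries and Mal 57.8, 51.9 and 50.6 CPM in the control libraries and 65.1, 58.3 and 73.1 CPM in the hNSCs libraries, both above control without overlap and by less than 1.5-fold.

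Extracellular matrix transcripts had the lowest median of the 24 lists, -0.19 (quartiles -0.27 and 0.050), with 5 of 18 positive. Col1a2, of fibrous collagen, had 249, 343 and 149 CPM in the control libraries and 224, 349 and 55.6 CPM in the hNSCs libraries, and Col3a1 356, 454 and 130.3 CPM in the control libraries and 294, 411 and 56.7 CPM in the hNSCs libraries. Sparc was at -0.13 ± 0.37. For both collagens replicate 3 was the lowest of each group, and the ranges overlapped. Endothelial transcripts had a median of 0.036 (quartiles -0.14 and 0.17). Pecam1, an adhesion molecule of endothelial junctions, had 8.57, 8.71 and 9.94 CPM in the control libraries and 14, 13.1 and 13.8 CPM in the hNSCs libraries, and Esam, another one, 3.02, 3.56 and 3.15 CPM in the control libraries and 9.98, 5.79 and 4.11 CPM in the hNSCs libraries, both above control without overlap. Tjp1, Slc2a1 and Eng were at 0.077 ± 0.26, 0.20 ± 0.64 and -0.15 ± 0.91. Pericyte and angiogenic transcripts had a median of 0.064 (quartiles -0.10 and 0.27), with Vegfa, Vegfb and Rgs5 at -0.0035 ± 0.31, 0.020 ± 0.67 and 0.16 ± 1.67. Acta2, the smooth muscle actin, had 27.2, 10.7 and 21.8 CPM in the control libraries and 39.2, 36.2 and 29.5 CPM in the hNSCs libraries, above control without overlap, with a log2 fold change of 0.81 ± 1.02.

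Interferon and antigen presentation transcripts had a median of 0.0039 (quartiles -0.17 and 0.15). B2m and Cd74, of the antigen-presenting complexes, were at 0.071 ± 0.58 and -0.050 ± 0.94, and Stat2 at -0.17 ± 0.71. RT1-Bb, a class II chain, had 3.7, 8.05 and 4.42 CPM in the control libraries and 0, 2.26 and 0.968 CPM in the hNSCs libraries, below control without overlap, and Psmb8, a subunit of the immunoproteasome, had 4.93, 6.07 and 2.68 CPM in the control libraries and 10.3, 17.5 and 3.39 CPM in the hNSCs libraries. Class II genes are close relatives that may share reads, so the assignment of reads to RT1-Bb is uncertain. Oxidative stress and chaperone transcripts were negative in 16 of 20, with a median of -0.068 (quartiles -0.16 and -0.024), and the abundant chaperones Hsp90ab1, Hsp90aa1 and Hspa8 were at -0.12 ± 0.23, -0.030 ± 0.25 and 0.18 ± 0.50. DNA repair members had a median of 0.073 (quartiles -0.11 and 0.18), with Xrcc1, Parp1 and Ercc1 at -0.10 ± 0.40, -0.19 ± 0.65 and 0.18 ± 1.63.

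Genes of EV formation were followed because their proteins build the particles measured. Their median was 0.0056 (quartiles -0.12 and 0.080), and 10 of 20 intervals lay within 1.5-fold in the fit of the 6 libraries. The tetraspanin Cd81 had 81.8, 63.9 and 80.9 CPM in the control libraries and 86.2, 77.3 and 78.6 CPM in the hNSCs libraries. Chmp4b, of the membrane scission complex, was at -0.39 ± 0.30, and Flot1 and Sdcbp were at 0.0026 ± 0.32 and -0.078 ± 0.37. Smpd3, the neutral sphingomyelinase of exosome budding, had 49.3, 43.4 and 42.6 CPM in the control libraries and 61, 57 and 52.6 CPM in the hNSCs libraries, above control without overlap, and Flot2 87.5, 90.2 and 96.7 CPM in the control libraries and 80.1, 78.9 and 59.6 CPM in the hNSCs libraries, below it without overlap. Transcripts of respiration had a median of -0.012 (quartiles -0.091 and 0.16), with Atp5b, Atp5a1 and Cox4i1 at -0.10 ± 0.30, -0.091 ± 0.32 and -0.21 ± 0.54. Ribosomal protein transcripts had a median of -0.088 (quartiles -0.20 and 0.052), with Rpl35, Rpl3 and Rpl19 at 0.20 ± 0.38, -0.11 ± 0.74 and 0.028 ± 0.73. Rps6 had 137, 139.6 and 147 CPM in the control libraries and 96.2, 136 and 137 CPM in the hNSCs libraries. Its groups did not overlap before rounding, but the lowest control and the highest hNSCs value both round to 137 CPM. Ribosomal protein genes have processed copies, and their values are uncertain for this reason.

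Map1b, Map1a, Park7, Prdx6, Jun, Calr and Efnb3, 7 genes taken from the study's text and not all that it names, were read in the same libraries. These 7 had negative values, from -0.44 for Jun to -0.024 for Efnb3, and 0 had an unadjusted p under 0.05. Map1b, a microtubule-associated protein of growing axons, had 5074, 4834 and 5835 CPM in the control libraries and 4244, 4432 and 6221 CPM in the hNSCs libraries. Map1a, its counterpart in mature neurons, had 3551, 4495 and 4788 CPM in the control libraries and 3105, 3637 and 4412 CPM in the hNSCs libraries. In the fit of the 6 libraries the interval of Map1b was -0.50 to 0.32, that of Calr, an endoplasmic reticulum chaperone, -0.44 to 0.30, and that of Efnb3, an ephrin of the midline, -0.59 to 0.52. The antioxidant proteins Park7 and Prdx6 were at -0.20 ± 0.67 and -0.25 ± 0.63, with 65, 51.2 and 53.5 CPM in the control libraries and 53.4, 44.3 and 45 CPM in the hNSCs libraries for Prdx6. In the fit of all libraries, Snap25 was at 0.17 ± 0.46, Nrgn at 0.21 ± 0.36 and Camk2n1, an inhibitor of the kinase CaMKII, at 0.40 ± 0.38. None of them was called either. From a heatmap, the study reports these neuronal markers as upregulated in hNSCs. Other abundant neuronal transcripts had negative values in that fit, with Nefm at -0.35 and Nefl at -0.12. Nefl was the 1 negative member of the 8 pan-neuronal markers, with 7 positive and a median of 0.18. Of 8 glutamatergic markers 5 were positive, with a median of 0.12. Postsynaptic density members were positive in 16 of 18, and neuronal cytoskeleton members were negative in 11 of 18. From the same kind of heatmap, the study reports Mbp, S100b, Vim and Apoe as markers of brain damage. It reports them as attenuated in hNSCs, without naming a day. At 31 days they were at -0.078 ± 0.39, -0.090 ± 0.31, -0.18 ± 0.60 and -0.19 ± 0.44, and none was called.

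**Figure D4:**
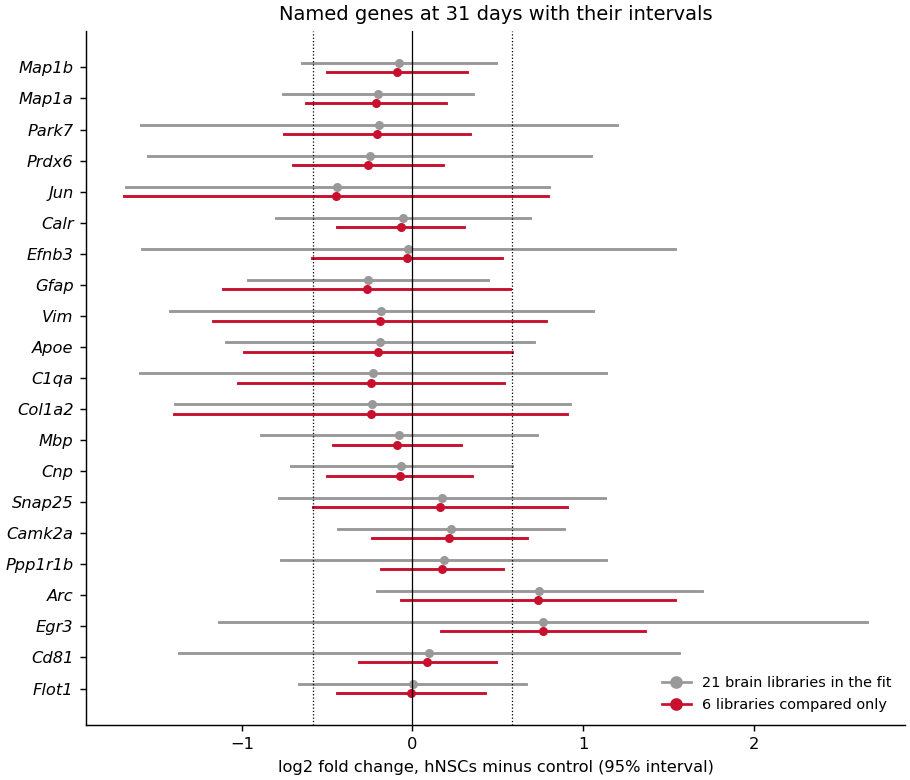
Log2 fold change with its 95% interval for 21 named genes, hNSCs minus control at 31 days, from the fit of all 21 brain libraries (gray) and of the 6 libraries compared (red), with dotted lines at 1.5-fold. The intervals of Map1b, Calr, Mbp and Flot1 stay within 1.5-fold in the fit of the 6 libraries, and those of Jun, Vim and Col1a2 reach past it on both sides.

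Summed markers of brain cell types overlapped between the groups. Microglial markers, with 8 of 8 found, summed to 254, 404 and 215 CPM in control and 209, 397 and 125 CPM in hNSCs, and astrocyte markers to 4748, 5731 and 4659 and 4583, 6145 and 2679 CPM. Pan-neuronal markers summed to 6737, 5157 and 7900.5 CPM in control and 5851, 5951 and 9824 CPM in hNSCs. Replicate 3 of hNSCs had the lowest microglial, astrocyte and fibroblast sums of the 6 and the highest neuronal sum. Replicate 2 of each group had the highest microglial and astrocyte sums of its group, and replicate 3 had the lowest microglial sum. Between rats of the same replicate number, the summed CPM was higher in hNSCs in 3 of 3 pairs for 3 of the 24 lists (immediate early genes, ephrins, and GABA receptors and ion channels) and lower in 3 of 3 for 4 (both microglial lists, extracellular matrix and axon growth). Of the 16 marker lists, 1 was higher in 3 of 3 pairs (glutamatergic neurons) and 4 were lower (microglia, choroid plexus, red cells and liver). The choroid plexus and liver lists share Ttr. The smallest two-sided exact sign test p that 3 pairs allow is 0.25. That is also the share of lists expected to go one way in 3 of 3 pairs without any effect. The counts of lists lie near this share, so none of these lists is read as a difference between the groups. The part of these sums in the values of single genes was not tested.

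**Figure D5:**
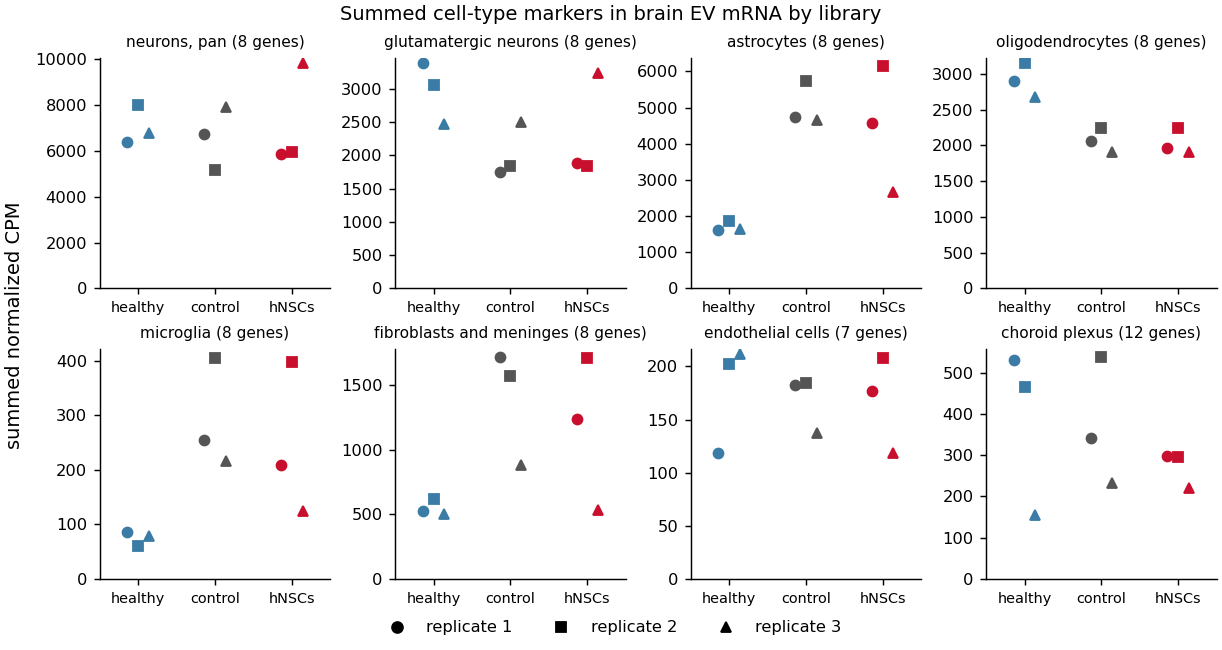
Summed normalized CPM of 8 marker lists in each brain library, with 1 point per rat, its shape giving the replicate number. Control and hNSCs libraries overlap in every panel, and hNSCs replicate 3 lies lowest for microglia, astrocytes and fibroblasts and highest for neurons.

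Oligodendrocyte sums ranged from 1906 to 2249 CPM over both groups. Choroid plexus markers, for the epithelium that makes cerebrospinal fluid, summed to 341, 539 and 233 CPM in control and 298, 296 and 219.8 CPM in hNSCs. Ttr, its main transcript, had 102, 211 and 106 CPM in the control libraries and 90.9, 89.8 and 67 CPM in the hNSCs libraries, below control without overlap, with a log2 fold change of -0.76 ± 0.66. Markers of blood cells were rare: B cell markers summed to at most 2.64 CPM, platelet markers to 21 CPM and neutrophil markers to 26.8 CPM. T cell markers summed to 11.6 to 60.5 CPM, of which Cd4, also a transcript of microglia in rats, gave 93.5%, and Cd3e, Cd3d, Cd2 and Cd5 had no count in any of the 6 libraries. The B cell gene Ms4a1 and the platelet gene Ppbp had no count either. Hepatocyte, muscle, red cell and ependymal sums overlapped between the groups as well. Tf alone gave 58.3% of the hepatocyte sum, and Pvalb, read above as an inhibitory neuron marker, 48.5% of the muscle sum. These sums are therefore not specific to liver or muscle.

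Against healthy brains, both stroke groups at 31 days were set side by side, since they share the healthy libraries. Of 14515 genes, 1 (0.00689%) was called between control and healthy and 5 (0.0344%) between hNSCs and healthy. Gfap rose in both, with a log2 fold change of 2.5 ± 0.34 in control (adjusted p 0.00591, edgeR) and 2.24 ± 0.34 in hNSCs (adjusted p 0.0139). In hNSCs, Cmklr1, the chemerin receptor of microglia and macrophages, rose by 6.05 (log2), and Pnmal2, Col11a2 and Col27a1 fell by 6.79, 2.97 and 2.33. In control the same 4 genes had log2 fold changes of 6.24, -4.72, -2.34 and -2.2, with adjusted p between 0.0606 and 0.15. None of the 5 was called between hNSCs and control, where an unadjusted p under 0.05 was found for Pnmal2 alone. Cmklr1 stood at 25.9, 49.6 and 17 CPM in the control libraries and 28.7, 42.2 and 10 CPM in the hNSCs libraries, and the groups overlapped.

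At an unadjusted p under 0.05, 769 genes (5.3%) were higher and 267 (1.84%) lower in control at 31 days than in healthy brains. In the disease-associated microglia list 10 of 17 members were among the higher genes, in the homeostatic list 7 of 15, in the astrocyte list 9 of 16 and in the interferon list 9 of 21. Median log2 fold changes of these lists were 1.65, 1.84, 0.91 and 3.21, beside 0.24 over all genes. Of those lists, the medians between hNSCs and control at the same time were -0.11, -0.15, -0.041 and 0.0039. The day of collection and the higher annotated share of the libraries at 31 days cannot be told apart in a comparison with healthy rats.

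The effect of hNSCs at 31 days was also compared with that at 4 and 10 days by interaction terms of the same model. Of 14515 genes, 0 (0%) were called at either time, and 614 (4.23%) and 905 (6.23%) had an unadjusted p under 0.05 for the difference from day 4 and from day 10. DESeq2 called 316 genes in at least 1 of the 2 terms. Of the 24 genes above, 9 reached an unadjusted p under 0.05 in each term. These genes were chosen by the contrast at 31 days, which is part of each term, so a raised count follows from the choice. In plasma EVs of the same rats at 31 days, 0 of 14720 genes (0%) were called in edgeR and 1261 (8.57%) had an unadjusted p under 0.05. DESeq2 called 1684 there and limma on FPKM 5. Of the 24 brain genes, 14 were tested in plasma, and Cd36 and LOC100362830 had an unadjusted p under 0.05, at log2 fold changes of 1.61 and 1.47. In brain they were at 4.94 and -1.56, so LOC100362830 went in opposite directions in the tissues.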

How the data were processed

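Members and gene lists were chosen with earlier results of these data known. Before deposit, the authors trimmed the reads, mapped read pairs with Bowtie2 onto the rat build Rnor_6.0 and built transcripts with StringTie. The deposited counts are raw whole numbers per gene. The FPKM deposited beside them add up, for each gene, what StringTie gave its transcripts. Which program counted the reads, and whether by strand, is not given in the sources used here, so overlapping and antisense genes cannot be separated, and multicopy genes may share reads. New genes held 48.1% to 70.1% of the counts and entered only 1 alternative. miRNA tables were not used here.

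The model was edgeR 4.0.16 (R 4.3.3) with TMM, filterByExpr and the quasi-likelihood F test on annotated counts of 7 groups and 21 brain libraries. A call needed over 1.5-fold and an adjusted p (Benjamini-Hochberg) under 0.05. Intervals are 95% intervals. Abundance per length is given in FPKM, and limits on CPM or counts describe depth. Alternatives used DESeq2 1.42.0 and limma 3.58.1 (voom, or log2 of FPKM plus 1 or 0.1 where 3 libraries reached an FPKM of 1). The test was also run on counts simulated from its own model, with 1 spread per gene shared by all groups. That run does not cover groups of unequal spread. Named genes were the 24 with the smallest unadjusted p, since under 20 were called, the 3 members per list highest in FPKM, 7 genes named by the study and defining markers. Others were named after their values were seen, and some named genes are not reported here.

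Replicate numbers come from the labels. Deviations from the group means of same-numbered control and hNSCs libraries correlated at 0.217, 0.194 and 0.25. In these deviations each library was most like its own number in the other group. On plain levels this did not hold, since hNSCs replicate 2 was closer to control replicate 1 (r of 0.947) than to control replicate 2 (0.942). Whether the numbers pair rats is not given in the labels, and the block served as an alternative only. Libraries are separate rats, and 3 a group limit the precision.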

Additional observations from a re-analysis of the deposited data

Results flagged for a closer look

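Gprin1 was the gene, among the 24 with the smallest unadjusted p, whose groups separated in opposite directions at 2 times. At 31 days its log2 fold change was -3.16, with every hNSCs library below every control library. At 4 days the control libraries held 1.88, 2.68 and 8.88 CPM and the hNSCs libraries 53.6, 10.8 and 14.3 CPM, with every hNSCs library above every control library and a log2 fold change of 2.54. The difference between the times was -5.7 (log2) in the edgeR interaction term. Gprin1 was chosen by these same values, so this difference is a description. No gene was called in this edgeR term, where the smallest adjusted p over all genes was 0.469. At 10 days 1 library of each group stood far above the others, at 76.5 CPM in control and 173 CPM in hNSCs.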

How the results depend on the processing

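The count of called genes at 31 days stayed at 0 with RLE factors, without TMM, without a filter, with new genes added, without hemoglobin genes, with the 6 libraries alone, with no fold limit, with limma on FPKM at either pseudocount, and in each fit without 1 library (range 0 to 0). It was 1 in DESeq2 (RGD1563034, 22, 12 and 8 counts in control and 0 in hNSCs), 1 in limma voom (Ubash3a), 1 in limma on FPKM without a filter (LOC103693210, 1.91, 3.43 and 1.26 CPM in control and 6.55, 9.13 and 7.38 CPM in hNSCs) and 13 at an unadjusted p under 0.05. With the replicate block it was 0, with 11 genes at an unadjusted p under 0.05. Chosen after seeing the data, fits of the 6 libraries gave 0 genes with the block, 0 without replicate 3 of either group and 1 in DESeq2 (Gprin1). Genes with an unadjusted p under 0.05 numbered 13 with 21 libraries, 70 without a filter, 56 with new genes, 37 and 3 in limma on FPKM, 627 in limma without a filter and 368 in voom.

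The effect of hNSCs at 31 days differed from that at day 4 or 10 in 0 genes in edgeR, with the replicate block and without any 1 library (0 to 0), and in 316 in DESeq2. Plasma gave 0 genes, 1684 in DESeq2, 5 in limma, 0 with the replicate block and 0 to 24 without 1 library, with 23, 7 and 24 without hNSCs replicates 1, 2 and 3. The causes were not tested. Of 424 values of the 24 genes under 22 alternatives, 3 changed sign: Tph1 (1.68 in voom, and -4.67 to 3.09 without 1 library, positive without control replicate 1) and Elfn2 (-0.43 to 4.31 without 1 library, negative without hNSCs replicate 1). The 24 genes were chosen by their differences in these libraries, and 15 had no count in 1 group, so few changes of sign were possible. Settings that left a gene untested or without counts gave no value. Without 1 library, group differences ranged from -750303 to 9092570 in total counts, from -5.34 to 5.66 percentage points in the annotated share, from -314 to 227 in detected genes and from -0.0049 to 0.0014 percentage points in the hemoglobin share. The replicate block changed no other call.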
